A study of Drosophila melanogaster with 6 samples.

Results

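Of 5209 genes known on the array only by a CG number, 85 had transcript levels that rose stepwise from embryos labelled grh mutant through wild type to grh overexpression. A CG number is the computed-gene name that the Drosophila genome annotation gives a predicted gene before a phenotype or function earns it another. The members were chosen by their measured values. A gene entered if its only annotation symbol was CG plus digits, its wild type mean was at least 4 on the log2 scale, and both steps were at least 0.8 log2 units, which is 1.74-fold. The steps were wild type minus grh mutant and grh overexpression minus wild type, and a gene with several probe sets was read from its brightest one. Of the CG-named genes, 2421 met the wild type minimum, so the 85 members were 3.51% of them. The same minimums picked 158 of 4634 genes with any other symbol, or 3.41%, so the stepwise pattern had nearly the same share in both kinds of gene. Because the rule used both steps, the values of the members are given as a description, with no test.

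The study measured RNA from whole Drosophila melanogaster embryos aged to stage 16, when the epidermis is secreting the larval cuticle. It used 6 Affymetrix arrays, 2 for each of 3 groups. The wild type strain was w1118, the mutant carried the allele grhB37, and in the third group grh was overexpressed under 69B, a GAL4 driver active in the embryonic ectoderm and epidermis. The labels state no treatment and no shared allele, and they give neither how mutant embryos were picked out nor whether replicates came from separate collections. Spread between replicates may therefore be technical. No group carried the driver alone, so a change due to grh cannot be told apart from one due to strain background, driver or collection. In whole embryos, fewer cells of a type and less RNA per cell cannot be told apart either.

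Grainy head (Grh) is a transcription factor of surface epithelia, conserved from flies to mammals. In the fly epidermis it acts on genes for cuticle building, hardening and wound repair. Its best known targets include Ddc, which makes the dopamine used to tan the cuticle. Embryos without Grh have a weak, poorly formed cuticle, and the gene takes its name from their grainy head skeleton.

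The transcript of grh itself did not follow the order of the groups. Its brighter probe set read 9.05 and 9.02 on the arrays labelled grh mutant, 7.36 and 7.45 in wild type, and 12.27 and 12.38 in grh overexpression. The other grh probe set was under 4 on every array. The labelled mutant arrays thus lay above wild type for grh, and below it for every member. "Stepwise" here means the order of the labels, and every direction that involves the mutant rests on that label. Replicates of all groups lay close together: the largest gap between 2 replicate arrays of a member had a median of 0.138 log2 units and reached 0.47.

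All 85 members had their 3 groups in order with no overlap between arrays, which the rule all but fixes. Among all 8632 rows (genes or unnamed probe sets) bright enough to be tested, 20.3% had that order. Taken singly, both mutant arrays lay below both wild type arrays in 49.9% of these rows, and both overexpression arrays above both wild type arrays in 39.9%. At a limma adjusted p under 0.05, 80.9% of the rows were called in grh mutant against wild type and 80.1% in grh overexpression against wild type, so a call by itself is common on these arrays. Over the members, the step from grh mutant to wild type ran from 0.81 to 4.71 with a median of 1.33, and the step from wild type to grh overexpression ran from 0.82 to 5.65 with a median of 1.51. Both steps reached at least 1 in 50 members, at least 1.5 in 23 and at least 2 in 9. In 67 members every wild type array exceeded every mutant array, and every overexpression array every wild type array, by 0.8 or more. In 30 members both mutant arrays read under 4, a level treated here as dim, and their fall is therefore only a lower bound. That was 35.3% of the members, against 25.9% of the other stepwise genes and 4.17% of all CG-named genes above the wild type minimum. The rule itself favours genes that are low in the mutant. With the mutant set at 4, 12 of the 30 kept a step of at least 0.8, so the others met the rule only through values under that level. With dim groups set at 4, the median step from grh mutant to wild type was 1.12.

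**Figure D1:**
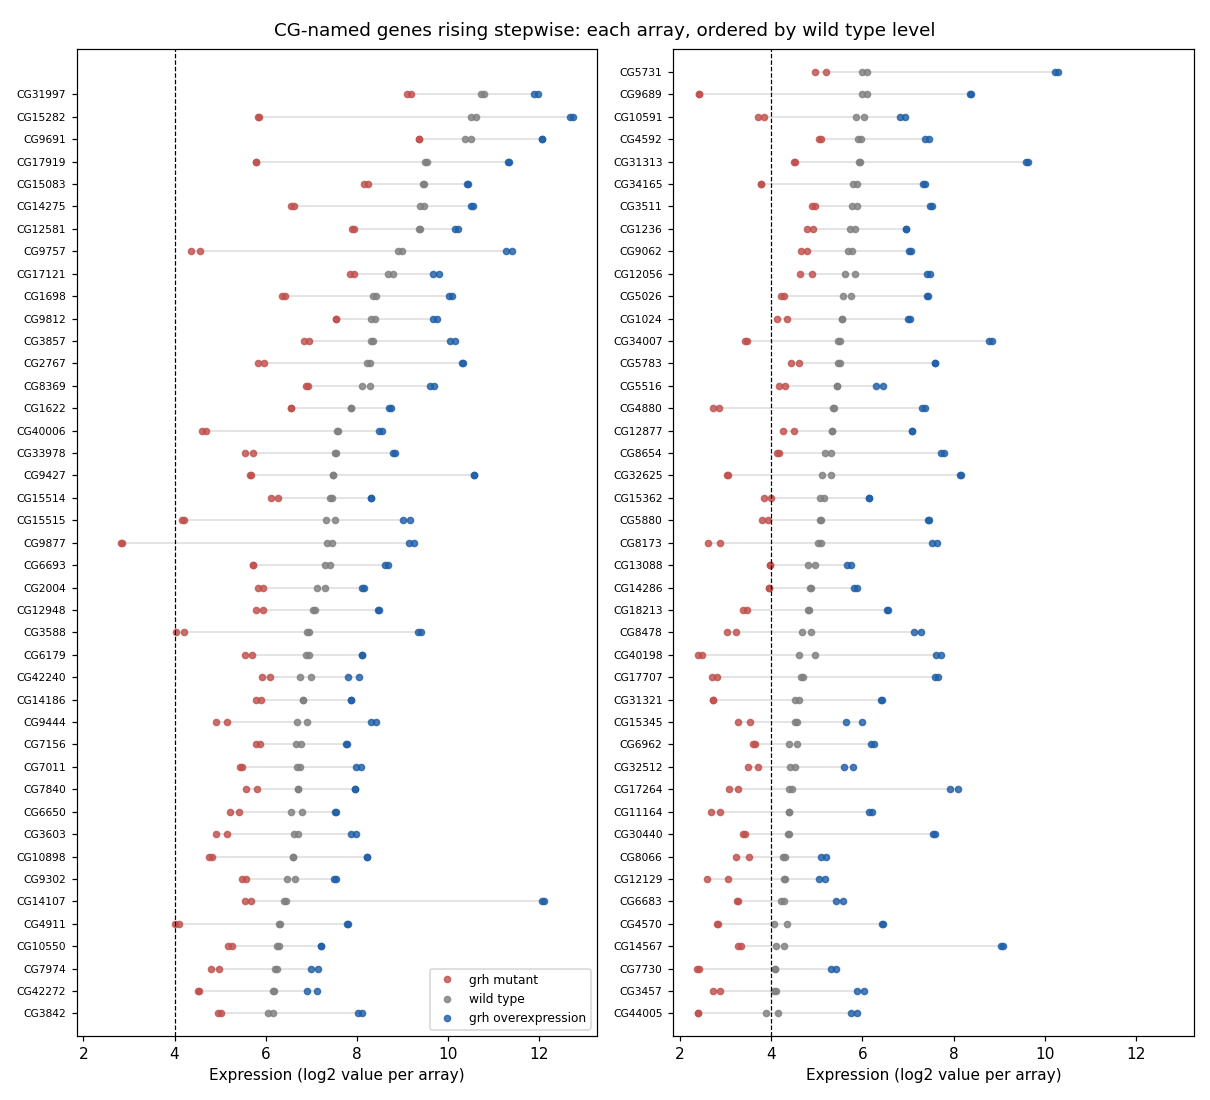
Each row is a member and each point 1 array, with the log2 expression value on the horizontal axis, genes ordered by wild type mean and the dashed line at 4. Mutant points lie left of wild type points and overexpression points to their right in all 85 genes, and both mutant points lie under the dashed line in 30 of them.

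The 12 members with the largest smaller step are described first. CG3588 read 4.20 and 4.03 on the arrays labelled grh mutant, 6.95 and 6.91 in wild type, and 9.34 and 9.40 in grh overexpression. Its levels climbed 7.05-fold and then 5.42-fold, and the mutant arrays were only just above the dim level. CG9757, listed in the reference table with the synonyms GCR-20 and Pen50DE, read 4.56 and 4.36, then 8.98 and 8.91, and then 11.41 and 11.27. Its fall in the mutant was the larger step, at 22.4-fold against a 5.25-fold rise. CG15282 had the same lopsided shape, with 5.82 and 5.86 in grh mutant, 10.60 and 10.51 in wild type, and 12.67 and 12.74 in grh overexpression. From the labelled mutant to overexpression, CG9757 spanned 118.0-fold and CG15282 116.0-fold.

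CG2767 read 5.84 and 5.97, then 8.28 and 8.23, then 10.31 and 10.33, in the same group order. Its steps of 5.09-fold and 4.19-fold were close to even, with every group well above the dim level. The other 8 of these 12 genes were dim in the mutant, so their place among the 12 rests on mutant values under 4. With the mutant set at 4, the falls of CG40198, CG17707 and CG31321 were 1.72-fold, 1.59-fold and 1.48-fold. These are short of the 1.74-fold minimum. CG9689, which carries a lincRNA synonym in the reference table although it is listed there as protein coding, read 2.42 and 2.42 in grh mutant, 6.09 and 5.98 in wild type, and 8.39 and 8.35 in grh overexpression. It was at least 4.09-fold lower in the mutant than in wild type and 5.05-fold higher in grh overexpression. CG40198 read 2.49 and 2.40, then 4.61 and 4.96, then 7.73 and 7.62. Its wild type replicates lay 0.35 apart, a gap over 0.3 that only 3 members showed. CG8173 went from 2.62 and 2.87 through 5.03 and 5.09 to 7.63 and 7.53.

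Of the remaining dim genes among the 12, CG34007 read 3.47 and 3.42 in grh mutant, 5.5 and 5.47 in wild type, and 8.78 and 8.84 in grh overexpression. That was at least 2.8-fold lower in the mutant and 10-fold higher with overexpression. CG32625 read 3.04 and 3.03, then 5.30 and 5.12, then 8.17 and 8.14, and CG17707 read 2.70 and 2.81, then 4.69 and 4.65, then 7.66 and 7.60. Over wild type these rose by similar amounts, 7.71-fold and 7.79-fold. CG4880 was at least 2.58-fold lower in the mutant and 3.91-fold higher with overexpression. CG31321 was at least 1.48-fold lower and 3.59-fold higher.

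The members differed in which step was larger. In 44 genes the steps differed by under 0.5 log2 units. In 25 the rise with overexpression was larger by at least that much, and in 16 the fall in the mutant was. In the 25 genes with the larger rise the median rise was 2.43 and the median fall 1.08, and in the 16 with the larger fall the medians were 1.5 and 2.71. Of these genes 12 of the even group, 12 of the larger-rise group and 6 of the larger-fall group were dim in the mutant. A dim gene's true fall may be greater than the values show, so its place among these shapes is not settled.

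**Figure D2:**
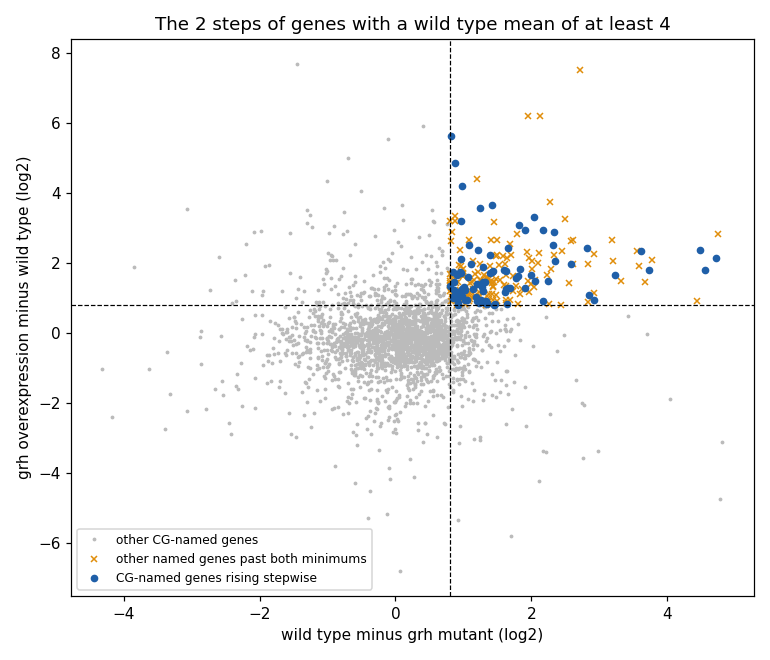
Points are the CG-named genes with a wild type mean of at least 4 and, as crosses, the other named genes past both minimums, with wild type minus grh mutant on the horizontal axis and grh overexpression minus wild type on the vertical axis, both in log2 units. Dashed lines mark 0.8. The 85 CG-named members and the 158 other named genes fill the same corner, and most members lie near its inner edges, with a few far out along 1 axis.

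The 5 largest rises belonged to genes whose measured fall in the mutant was at most 1.43 log2 units. CG14107 read 5.67 and 5.55 in grh mutant, 6.44 and 6.41 in wild type, and 12.10 and 12.05 in grh overexpression. Its rise was 50.1-fold, while its fall of 1.76-fold was among those nearest the minimum. Without wild type replicate 1 or grh mutant replicate 2 that fall was under 0.8 and the gene no longer met the rule, and it also dropped out when each array was centred on its median. CG14567 read 3.34 and 3.27, then 4.27 and 4.11, then 9.04 and 9.09, a 29.4-fold rise from a wild type level barely above dim. CG5731 went from 4.96 and 5.19 through 6.10 and 6.0 to 10.28 and 10.22, an 18.4-fold rise. CG31313 rose 12.7-fold and CG17264 11.9-fold. In all 5 the mutant and wild type arrays read closer to each other than to the overexpression arrays. In CG14567 and CG17264 the mutant arrays were dim, so their falls of at least 1.14-fold and at least 1.34-fold are lower bounds.

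Of the 5 largest falls, CG15282, CG9757 and CG9689 are given above among the 12, and the other pair, CG9877 and CG17919, also fell more than they rose. CG9877 read 2.84 and 2.83 on the arrays labelled grh mutant, 7.45 and 7.34 in wild type, and 9.26 and 9.14 in grh overexpression. It was at least 10.5-fold lower in the mutant and only 3.49-fold higher with overexpression. CG17919 read 5.78 on both mutant arrays, 9.54 and 9.50 in wild type, and 11.34 and 11.32 in grh overexpression, so it fell 13.3-fold and rose 3.51-fold. The next largest falls were those of CG15515, CG40006 and CG14275. CG15515, with 4.16 and 4.21, then 7.51 and 7.32, then 9.16 and 9.02, fell 9.36-fold and rose 3.20-fold. CG40006 and CG14275 fell 7.61-fold and 7.17-fold and rose only 1.93-fold and 2.15-fold.

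The other members are smaller versions of these shapes. The 66 genes outside the top 12 and outside the 5 largest of each step fell by between 0.81 and 3.23 log2 units in the mutant and rose by between 0.82 and 3.20 in grh overexpression. Even steps with all groups above the dim level were seen in CG1698 (2.0 and 1.67), CG10898 (1.80 and 1.62), CG9444 (1.78 and 1.57), CG7011 (1.27 and 1.32) and CG14186 (0.98 and 1.06), where the first value is wild type minus mutant and the second overexpression minus wild type. Several of these genes were well expressed on every array. CG31997 read 9.19 and 9.09 in grh mutant, 10.78 and 10.71 in wild type, and 11.98 and 11.89 in grh overexpression, and CG9691 read 9.37 and 9.36, then 10.50 and 10.38, then 12.05 on both arrays. These went up by graded amounts from a transcript already plentiful in the mutant, and did not switch from dim to bright.

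At the minimum of 0.8 the boundary ran through a continuum of genes. Just inside lay CG9812 with a fall of 0.81 and a rise of 1.36, CG14107 with 0.82 and 5.65, CG12581 with 1.46 and 0.82, and CG13088 with 0.91 and 0.82. Just outside lay CG1677 with 0.80, marginally short of the minimum before rounding, and 1.62, CG32425 with 0.93 and 0.79, CG14419 with 1.31 and 0.79, and CG8850 with 0.79 and 1.79. Across that line nothing separated members from non-members but these small margins. In CG12129 the mutant replicates read 3.05 and 2.58, the widest gap among members.

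The reference gene table lists 84 of the 85 members, all as protein coding and all still under their CG symbol, and does not hold CG15345 by its identifier. A few have synonyms taken from proteins described in other species. CG4911 is listed as FBXO4 and CG13088 as FBXO15, the names of human F-box proteins, which pick substrates for ubiquitin ligases. CG4911 read 4.02 and 4.09 in grh mutant, 6.31 and 6.29 in wild type, and 7.80 and 7.79 in grh overexpression. CG5026 is listed as MTMR9, in humans a myotubularin-related protein without phosphatase activity, and CG12877 as REXO1, the name of a human RNA exonuclease. CG5026 fell by 1.42 and rose by 1.76, and CG12877 fell by 0.96 and rose by 1.75. CG10550 and CG2004 carry the synonyms Dro13-1 and Dro41-0. The steps were 1.05 and 0.95 for CG10550 and 1.33 and 0.91 for CG2004. No deposited value bears on what these proteins do in the embryo.

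In 73 members the probe set name ended in plain _at, the form Affymetrix gives to probes meant for 1 transcript, which was 85.9% against 80.3% of all CG-named genes above the wild type minimum. A pair of probe sets read 6 members, and the dimmer one was not used to choose them, though it comes from the same arrays. In CG5026 and CG9062 both probe sets showed both steps. The dimmer one of CG9062 read 4.45 and 4.31 in grh mutant, 5.70 and 5.61 in wild type, and 7.26 and 7.33 in grh overexpression, and that of CG5026 stepped by 1.54 and 1.03. The dimmer probe set of CG42272 kept the order with smaller steps, 0.44 and 0.65, but its mutant and wild type arrays were all under 4. For CG3588 and CG3857 it was under 4 on every array. CG33978 was the exception in shape: its dimmer probe set read 2.47 and 2.50 in grh mutant, 2.59 and 2.65 in wild type, and 6.72 and 6.90 in grh overexpression, so it was dim in both other groups, while the brighter one showed both steps, 1.90 and 1.29. The files do not say which transcripts of CG33978 the probe sets read.

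**Figure D3:**
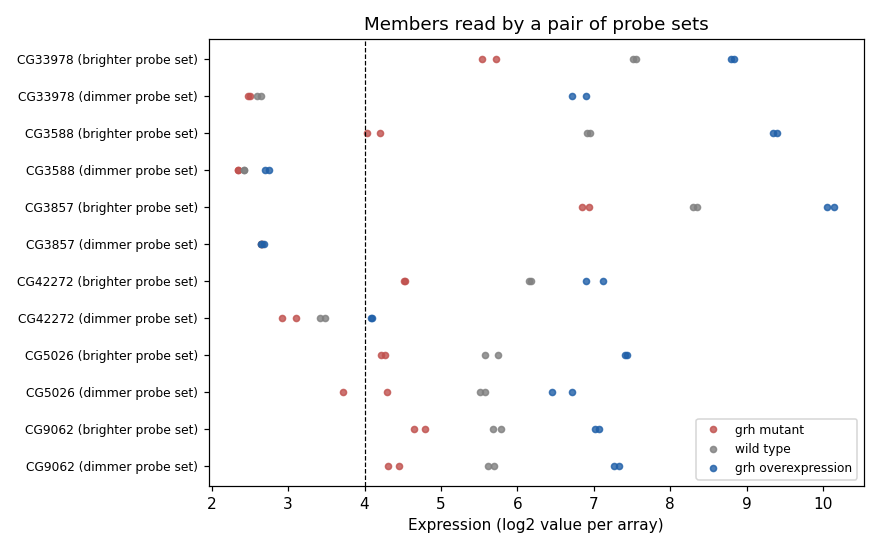
Points are single arrays of the 6 members with a pair of probe sets, with log2 expression on the horizontal axis and the dashed line at 4. CG5026 and CG9062 show both steps on each probe set, CG33978 shows only the rise on its dimmer one, and the dimmer ones of CG3588 and CG3857 stay left of the line.

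Some members lay side by side in the genome, a feature the rule did not use. In the order of protein-coding genes of the reference table, 12 members formed 6 neighbouring pairs, none of which overlap each other in that table. Of 105 direct neighbours of members that met the wild type minimum, 15 also passed both step minimums, or 14.3%. For genes that are not members the share was 3.41%, 279 of 8177 neighbours. Of the 15, 12 come from the 6 pairs, counted from both sides, and 3 are genes with other names. These shares are given without a test. CG8066, CG12581 and CG42240, from different pairs, each dropped out of the members when certain single arrays were left out. The shares were not recounted without them.

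The pair CG15282 and CG34165 differed in level but not in order. CG34165 read 3.78 on both mutant arrays, 5.88 and 5.80 in wild type, and 7.33 and 7.37 in grh overexpression, beside the 10.60 and 10.51 of CG15282 in wild type. The next gene on, CG42685, stayed at the bottom of the scale, at most 2.28 on any array. Around CG9689 and CG9691 the measured neighbours went another way. CG9686 on one side fell in grh overexpression from 6.03 and 5.78 to 3.21 and 2.97, and on the other CG15249 fell from 8.32 and 8.38 to 7.36 and 7.37. Over these 4 genes the 2 in the middle rose with overexpression while those on the flanks fell.

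CG31313 and CG8066 also neighbour each other. CG8066 read 3.22 and 3.51, then 4.26 and 4.30, then 5.08 and 5.19, a rise of 0.86 against 3.67 for CG31313. CG42240, with steps of 0.86 and 1.06, lies beside CG3842, with 1.12 and 1.97, and CG31997 lies beside CG33978. CG40198 lies between its partner CG12581 and Gfat1, the gene of the enzyme that starts the hexosamine route to chitin. Gfat1 read 8.60 and 8.63 in grh mutant, 11.60 and 11.56 in wild type, and 11.37 on both overexpression arrays. It was lower in the mutant, as CG40198 was, but not higher with overexpression.

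**Figure D4:**
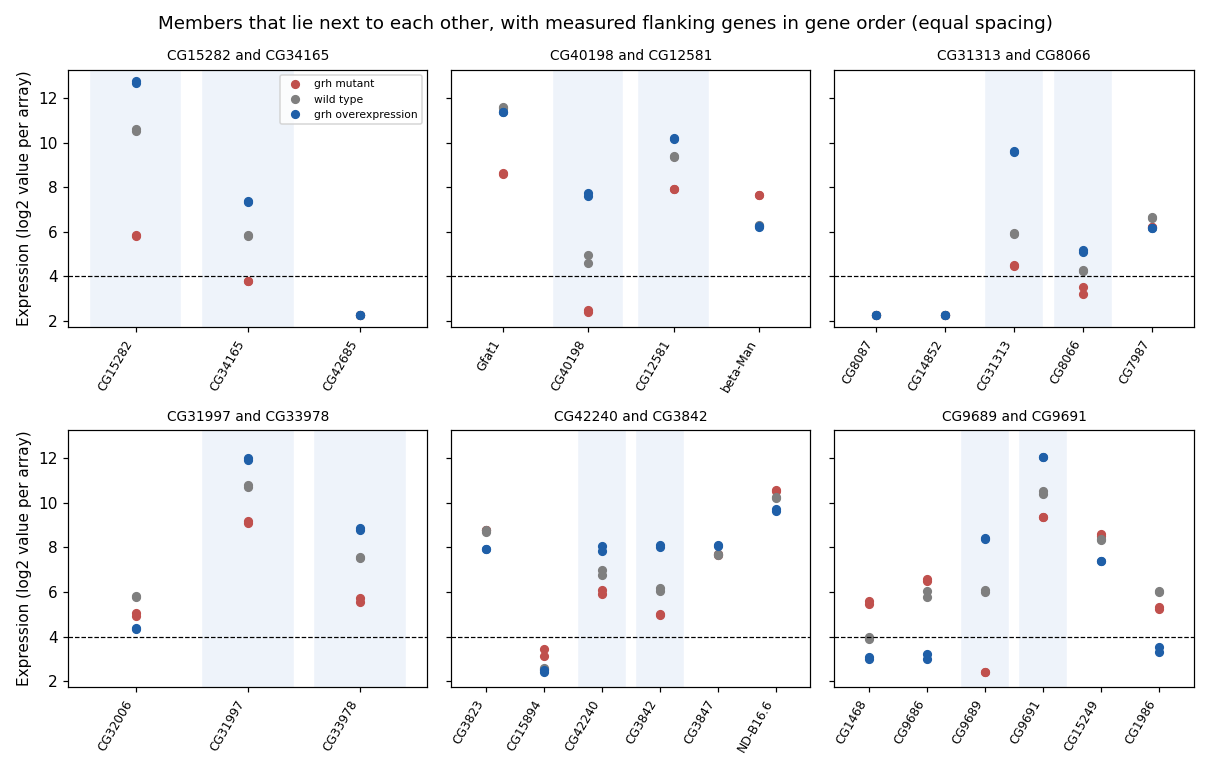
Each panel shows a pair of neighbouring members, shaded, with measured protein-coding genes up to 2 places away at equal spacing, and log2 expression per array on the vertical axis. The 12 shaded genes step from mutant to wild type to overexpression, and none of the unshaded flanking genes shown passes both step minimums.

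Outside these pairs, 3 members neighbour a stepwise gene with a name of its own. CG14107, the member with the largest rise, lies beside ImpL1, an ecdysone-inducible gene, which stepped by 1.21 and 4.41, beside 0.82 and 5.65 for CG14107. Both had the small fall and large rise described above. CG30440 lies beside stw, the gene of a laccase that hardens and tans the cuticle. CG30440 read 3.42 and 3.39 in grh mutant, 4.37 and 4.38 in wild type, and 7.55 and 7.60 in grh overexpression, and stw stepped by 1.09 and 0.99. CG32625 lies beside Pdcd4, which stepped by 1.86 and 1.27.

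Genes of known function with the same 2 steps were counted in gene lists that were chosen with earlier results of these data known. In the catecholamine and tanning list, which supplies the compounds that harden and colour the cuticle, 5 of 13 genes above the wild type minimum passed both: amd, stw, yellow-d, yellow-d2 and Dhpr. Another gene of that list, ple, was on the array but read at most 2.38 on any array. In the chitin and cuticle assembly list 4 of 20 did: knk, obst-B, Cht2 and Gnpnat. In the cell cycle list 4 of 8 did: CycB, CycB3, fzy and dup. None of the genes above the wild type minimum in the lists for muscle (8), neurons (8), glia (7), hemocytes (7), fat body (3), midgut (6) and trachea (9) did. The lists are short, and no share was tested against the 3.41% of all named genes.

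**Figure D5:**
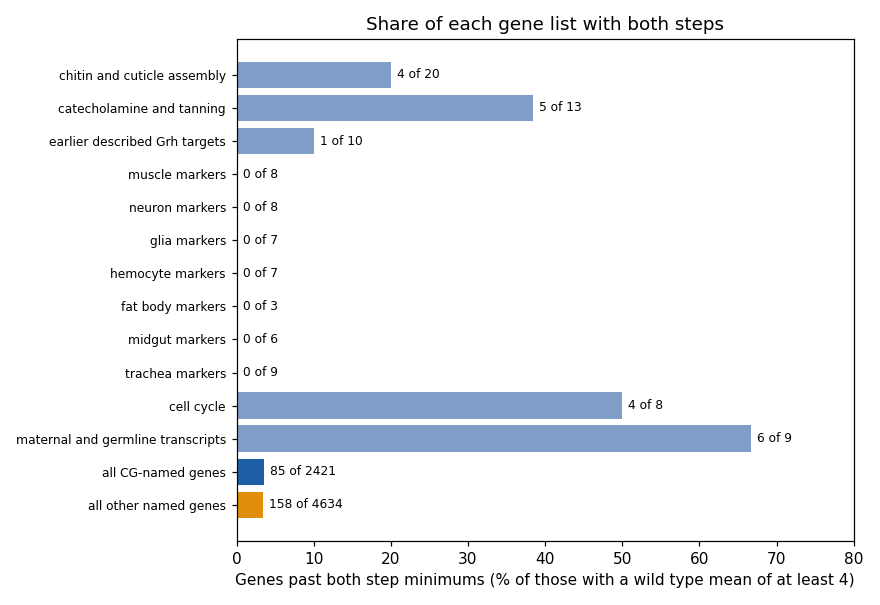
Bars give the percentage of each list's genes, of those with a wild type mean of at least 4, that pass both step minimums, with the counts at their ends. The maternal and germline bar (6 of 9), cell cycle bar (4 of 8) and catecholamine bar (5 of 13) are the longest, beside 85 of 2421 CG-named and 158 of 4634 other genes, and the 7 tissue lists are at 0. The maternal and germline list was added after values of some of its genes had been seen.

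Cuticle genes as a whole did not all step. Of 21 tested chitin and cuticle assembly genes, limma called 6 higher and 12 lower on the arrays labelled grh mutant than in wild type (adjusted p under 0.05), where 36.3% and 44.6% of all tested rows were called. The list's median was -0.52 log2 units against -0.07 over all rows. In grh overexpression 11 were higher and 7 lower, where 36% and 44.1% of all rows were called, with a median of 0.26 against -0.08. Counts of calls near these shares are no result about the list. Among the members of this list with both steps, knk, which organises chitin fibres, read 5.04 ± 0.04 (SD, n = 2) in grh mutant, 6.54 ± 0.03 in wild type and 8.77 ± 0.02 with overexpression. Its limma adjusted p was 1.46e-09 for the fall and 2.63e-11 for the rise. Gnpnat, a later enzyme of the hexosamine route, fell by 2.61 (limma adjusted p = 1.36e-11) and rose by 1.97 (adjusted p = 4.43e-11). Gfat1 fell by 2.96 and Cht5, a chitinase gene, rose by 5.07, but Cht5 was also 2.50 higher in grh mutant (limma adjusted p = 3.21e-11).

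Of 13 tested catecholamine and tanning genes, 3 were called higher and 8 lower in grh mutant (median -0.70), and 11 higher and 2 lower in grh overexpression (median 0.99). The shares over all rows were 36.3% and 44.6% in the mutant, and 36% and 44.1% with overexpression. The alpha-methyldopa resistance gene amd fell by 1.53 and rose by 1.53, from 8.11 ± 0.02 through 9.64 ± 0.03 to 11.17 ± 0.01 (SD, n = 2, limma adjusted p = 6.15e-11 and 2.23e-11). The yellow-family gene yellow-d2 was dim in the mutant and rose by 2.85 with overexpression (limma adjusted p = 3.4e-11). The body pigment gene ebony (e) rose by 2.69 with overexpression but was 0.20 higher in grh mutant (limma adjusted p = 0.0134), so it did not step. The gene yellow (y) went the other way, 0.94 higher in grh mutant and 2.28 lower in grh overexpression. A list of Grh targets from earlier work had 10 tested genes. In the mutant 6 of them were called higher and 3 lower, and with overexpression 6 higher and 2 lower (medians 0.37 and 0.29), beside the same shares over all rows. With the replicate number as a block, 8 were higher and 2 lower with overexpression. Of the 10 genes knk alone passed both step minimums. Ddc fell by 1.46 in the mutant and rose by only 0.39.

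Part of the cell cycle list moved in the same order as the members, with 4 of 8 genes passing both step minimums. For the 8 cell cycle genes on the array the log2 of their summed level ran from 8.33 to 8.39 in grh mutant, from 10.33 to 10.39 in wild type and from 12.22 to 12.26 in grh overexpression. CycB and CycB3 carried much of that sum in wild type (8.96 and 8.47) and in grh overexpression (10.89 and 10.52). The sum therefore does not describe each gene of the list. Of the 8, limma called 6 lower and 1, PCNA, higher in grh mutant, and 5 higher in grh overexpression, where CycE, PCNA and Mcm2 were not called (limma adjusted p = 0.509, 0.121 and 0.297). With the replicate number as a block, which the labels do not tie to any batch, PCNA was called higher in grh overexpression too. Over all tested rows 44.6% were lower in the mutant and 36% higher with overexpression. The mitotic cyclin gene CycB fell by 3.59 (limma adjusted p = 1.33e-12) and rose by 1.93 (adjusted p = 3.95e-11). In the same list dup fell by 1.58 and rose by 2.20. Mcm2 and PCNA did not step: Mcm2 read 5.27, 5.27 and 5.37 in the 3 groups, and PCNA 5.92, 5.52 and 5.69.

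A list of 18 maternal and germline genes was added after values of some of its genes had been seen, so it gets no test. Of 16 on the array, 9 were above the wild type minimum and 6 of those stepped: bcd, plu, twe, swa, smg and CycB3, which is also a cell cycle gene. The anterior determinant gene bcd, whose RNA the mother lays down in the egg, averaged 2.47 in grh mutant, 6.25 in wild type and 8.35 with overexpression. The other 3, gcl, stau and tud, did not step, and stau and tud were 1.23 and 1.10 higher in grh mutant. The log2 of the list's summed level ran from 10.59 to 10.61 in grh mutant, was 11.05 on both wild type arrays, and ran from 11.95 to 12 in grh overexpression. With overexpression CycB3 was the largest part of that sum, at a mean of 10.52, but it averaged only 5.27 in the mutant. On the other arrays the largest part was gcl, with means of 9.97 (wild type) and 9.67 (mutant). Without CycB3 the summed level ran from 10.55 to 10.57, from 10.78 to 10.79 and from 11.29 to 11.34, from mutant to overexpression. The genes osk, gnu, png, exu, vas and aub, which also define this class, were under 4 on every array. Muscle markers ran the other way, and tracheal and neuron markers did so in part. All 8 tested muscle markers were called higher in grh mutant and lower in grh overexpression by limma, where 36.3% of all rows were higher and 44.1% lower. The log2 of their summed level ran from 15.39 to 15.44 in grh mutant, from 14.94 to 14.97 in wild type and from 14.14 to 14.19 in grh overexpression. Of 9 tracheal markers 6 were higher in the mutant and 6 lower with overexpression, and of 10 tested neuron markers 7 were higher and 6 lower. With overexpression 7 of 8 hemocyte, 5 of 7 glia and 3 of 3 fat body markers were lower, while 5 of 7 tested midgut markers were higher. In the mutant 3 hemocyte markers were higher and 4 lower, and 2 glia markers were higher and 4 lower. There 2 fat body and 6 midgut markers were higher, and 1 midgut marker was lower. Over all rows 36.3% were higher and 44.6% lower in the mutant, and 36% higher and 44.1% lower with overexpression. The hemocyte and glia counts in the mutant were not far from these shares, so they give no direction for those sets. Midgut markers were mostly higher in both groups. The part of cell cycle, maternal and tissue marker transcripts in the steps of the CG-named members was not tested.

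Between 44.7% and 45.7% of probe sets other than controls were at 4 or above on each of the 6 arrays. The median difference over all tested rows was -0.07 for grh mutant minus wild type and -0.08 for grh overexpression minus wild type. The actin control probe set for the 3' end was not level: it averaged 10.53 in the mutant, 10.18 in wild type and 11.71 with overexpression. The 3' minus 5' difference of the actin control probe sets, which follows RNA quality, was 1.29 ± 0.03 in grh mutant, 1.44 ± 0.03 in wild type and 1.41 ± 0.11 with overexpression (SD, n = 2).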

How the data were processed

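The deposited table holds log2 expression values, 1 per probe set and array, that the authors had processed. Per the submitters' processing notes the tools were GCRMA and MAS5, without role or order. The scale was judged from the range, a shared floor of 2.27 up to 14.1, and genes were not centred. They were used unchanged. Gene symbols came from the platform annotation, where 13647 of 18952 had 1 symbol and 402 several. Current symbols were matched by gene identifier for 13544. No genome build is given in the sources used here, so the reference table served only for names and gene order. Rows reaching 4 on 2 or more arrays, 8632 of 17104, were fitted with limma 3.58.1 in R 4.3.3 as a 3-group means model with an intensity trend in eBayes and Benjamini-Hochberg adjustment over all tested rows, two-sided. The fit was tested on simulated data. Dim groups were bounded at 4. An array gives no depth, and 2 arrays a group limit the precision. The members, the gene lists and the rule for the genes named were chosen with earlier results of these data known. The rule took grh, the 12 members with the largest smaller step, the 5 with the largest step of each kind, members with neighbours or a pair of probe sets, those next to the minimum and up to 4 genes of a list. Other genes and synonyms were picked after their values were seen. Promoter and protein sequences were not analysed here.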

Additional observations from a re-analysis of the deposited data

How the results depend on the processing

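Of 110 alternative values, 109 were labelled the same: counts within 1.5 times the main count, and median steps that moved by less than the replicate spread. The exception was the count of 85 members, which was 50 with steps of at least 1. Inside that wide band the count was 109 with steps of at least 0.7, 99 with a wild type minimum of 3 and 64 with a minimum of 5. Leaving out 1 array at a time gave between 82 and 90 members, and 71 of the 85 were members each time. CG13088, CG14107, CG17121, CG44005, CG6962 and CG9812 were lost without wild type replicate 1. Centring each array on its median gave 75, all among the 85, and quantile normalization 85, of which 80 were shared. CG8066, CG7974, CG12129, CG13088 and CG42272 were lost under both scalings, CG14107, CG12581, CG9812, CG1622 and CG6650 with centring only, and CG3857 and CG42272 when probe sets were averaged. The median over all rows, grh overexpression minus wild type, moved from -0.08 to -0.15 with centring. The median steps of the members ran between 1.27 and 1.39 and between 1.47 and 1.55 without single arrays. With the replicate number as a block, which the labels do not tie to any shared batch, limma called 7171 rows in grh mutant against wild type (6979 without) and 7127 in grh overexpression (6915 without), while the chitin list had 19 and 18 calls (18 and 18 without). The earlier described Grh targets had 9 and 10 (9 and 8 without), so PCNA and dpp were called in grh overexpression with the block and not in the same fit without it. The block was not run for counts of the other lists. Differences between same-numbered replicates correlated at 0.165, 0.245 and 0.136 between the groups. Leaving out 1 array gave 6360 to 6847 and 6162 to 6736 called rows. For the chitin list it gave 17 in grh mutant and 17 to 18 in grh overexpression, and for the earlier described Grh targets 9 and 8 to 9. The planned promoter motif counts were not run. No group reached the 4 samples that an outlier test needs.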
